A study of Homo sapiens with 6 samples.

Results

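The genes described here load the histone variant CENP-A onto centromeres or sit on the chromatin it marks: CENPA itself, its chaperone HJURP, the MIS18 complex subunits MIS18A and OIP5, and the constitutive centromere proteins CENPC, CENPN, CENPI, CENPK and CENPM. These 9 genes were taken by symbol from the 63186 rows of the count table, and 8 of them passed the filter on low counts, as did 15911 genes in all. The 6 RNA-seq libraries came from RBE, an established human line of intrahepatic cholangiocarcinoma, which is a tumour of bile ducts inside the liver. In 3 libraries (si-CHAF1A) the cells had been transfected with siRNA against CHAF1A, and in the other 3 (si-Ctrl) with a control siRNA. Both groups received the siRNA with a Lipofectamine reagent at about 60% confluency, had fresh medium at 24 h and were taken for RNA at 48 h. CHAF1A encodes the largest part of CAF-1, the chaperone that deposits histones H3 and H4 on newly copied DNA in S phase, whereas CENP-A has a deposition pathway of its own. The labels do not say how many siRNAs were used, and the model is 1 cell line at 1 time point.

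Centromeres of human cells are defined less by DNA sequence than by nucleosomes that carry CENP-A in place of ordinary histone H3. CENP-A is diluted when DNA is copied and is refilled after mitosis: the MIS18 complex marks the centromere as ready, and HJURP carries the new CENP-A there. CENP-C and CENP-N read the CENP-A nucleosome, and with CENP-I, CENP-K, CENP-M and further subunits they form the constitutive platform on which the outer kinetochore is built in mitosis. In textbooks these proteins belong to the inner kinetochore, whereas the term inner centromere usually means the chromosomal passenger complex and shugoshins, which are given below as a list of their own.

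The 6 libraries held 15643381 to 20918997 counts. CHAF1A stood at 11.1, 12.9 and 11.2 CPM (counts relative to library size, after TMM scaling) in si-CHAF1A, against 51.5, 59.8 and 51.0 CPM in si-Ctrl, so the targeted gene was lower in each library that carries its name (log2 fold change -2.21, SE 0.10, edgeR adjusted p = 2.57e-10). si-Ctrl 2 stood apart from the other controls: where pairs of libraries were compared gene by gene (20 or more counts per pair), chi-square divided by its degrees of freedom was 13.5 against si-Ctrl 1 and 13.7 against si-Ctrl 3, but 2.30 between those 2 controls. Markers of biliary epithelium were abundant, with a summed level of 5325 to 5847 CPM in si-CHAF1A and 4125 to 4791 CPM in si-Ctrl over 7 genes, of which 4 were higher and 2 lower. The 6 hepatocyte markers summed to 30.2 to 53.0 CPM in si-CHAF1A and 16.3 to 25.5 CPM in si-Ctrl, nearly all of it SERPINA1, the only one tested, which was higher. The 8 immune, stromal and endothelial markers summed to 17.7 to 33.0 CPM in si-CHAF1A and 10.3 to 13.9 CPM in si-Ctrl, led by COL1A1, and of 3 tested only VWF was higher. None of these markers was at 0 in all libraries, and ALB, TTR, CD68 and CD3E had at most 10 counts in any library. The part of these markers in the results below was not tested.

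Promoters of several of these genes hold short words that cell cycle genes often carry. The cell cycle homology region (core TTTGAA or TTTAAA) is bound by the MuvB complex, CCAAT is bound by NF-Y, and TTCCCGC and TTGGCGC are E2F-like words. RefSeq (GRCh38.p14) promoters were matched for 7 of the 9 genes: CENPA, HJURP, CENPC, CENPK, OIP5, CENPN and CENPI. In the 250 bases before the start, read on both strands, a homology core was found in CENPA, HJURP and CENPC (3 of 7, against 21.9% of 34943 promoters), CCAAT in all but CENPI (6 of 7, against 32.0%) and an E2F-like word in CENPA, CENPN and OIP5 (3 of 7, against 7.8%). The windows of CENPA, CENPN and CENPI lie wholly inside their GENCODE 29 genes, which begin further upstream, so for these genes the RefSeq start used here is not the outermost annotated one. Shown are the chaperone and its cargo, which both fell, and CENPC, which did not pass the test, 5′ to 3′ on the strand of the gene, with these words in capitals. HJURP is from chr2:233854536-233854785 (minus strand), CENPA from chr2:26785806-26786055 (plus strand) and CENPC from chr4:67545504-67545753 (minus strand).
HJURP: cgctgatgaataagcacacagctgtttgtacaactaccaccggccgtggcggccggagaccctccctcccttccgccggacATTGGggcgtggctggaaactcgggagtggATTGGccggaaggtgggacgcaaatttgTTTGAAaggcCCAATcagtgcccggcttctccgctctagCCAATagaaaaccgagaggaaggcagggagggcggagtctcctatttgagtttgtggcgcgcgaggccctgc
CENPA: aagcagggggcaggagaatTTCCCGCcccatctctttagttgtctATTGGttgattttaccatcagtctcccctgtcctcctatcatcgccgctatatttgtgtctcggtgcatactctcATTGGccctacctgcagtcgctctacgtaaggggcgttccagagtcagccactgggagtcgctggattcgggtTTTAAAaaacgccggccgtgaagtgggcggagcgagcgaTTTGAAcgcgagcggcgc
CENPC: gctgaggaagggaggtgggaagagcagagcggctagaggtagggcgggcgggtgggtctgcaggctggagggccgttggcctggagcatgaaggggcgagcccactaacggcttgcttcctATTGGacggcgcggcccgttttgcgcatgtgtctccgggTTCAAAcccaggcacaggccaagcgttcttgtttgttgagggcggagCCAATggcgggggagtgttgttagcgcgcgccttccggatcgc
HJURP carried 4 CCAAT words and 1 homology core beginning 111 bases before the start. CENPA carried cores at 18 and 57 bases before the start, 2 CCAAT words and an E2F-like word. CENPC carried a core on the opposite strand at 90 bases and 2 CCAAT words. These matches are letters in a window and do not show binding. CENPC, which did not pass the test, also holds a core and CCAAT words. No E2F-like word was found in CENPC, nor in HJURP, CENPK and CENPI, which fell, while CENPN, which holds one, fell least. The part of these words in the differences was not tested.

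Most of the pathway was lower after CHAF1A knockdown. Of the 8 tested genes 7 were lower and 0 higher by edgeR's quasi-likelihood test at an adjusted p of 0.05 over all genes, where 19.3% of all tested genes were lower and 18.5% higher. Their median log2 fold change was -0.66, against 0.00 over all tested genes. In 6 of the 8, every si-CHAF1A library lay below every si-Ctrl library, which held for 24.1% of all tested genes. All 8 had at least 84 counts in every library of both groups. Without si-Ctrl 2, 7 were lower as well, with log2 fold changes of -1.39 for HJURP, -0.95 for MIS18A, -0.72 for CENPA, -0.70 for CENPM, -0.69 for CENPI, -0.77 for CENPK and -0.40 for CENPN, and -0.18 for CENPC. HJURP differed most, followed by MIS18A. CENPM, CENPA, CENPI and CENPK lay close together between -0.69 and -0.63, CENPN fell least, and CENPC did not pass. In bulk RNA, fewer cells in the phase that makes a transcript and less of it per cell cannot be told apart. The samples are described as biological replicates, but no label says whether they came from separate cultures, so a p-value reflects only how far these 6 samples differ, and that spread may be technical.

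**Figure D1:**
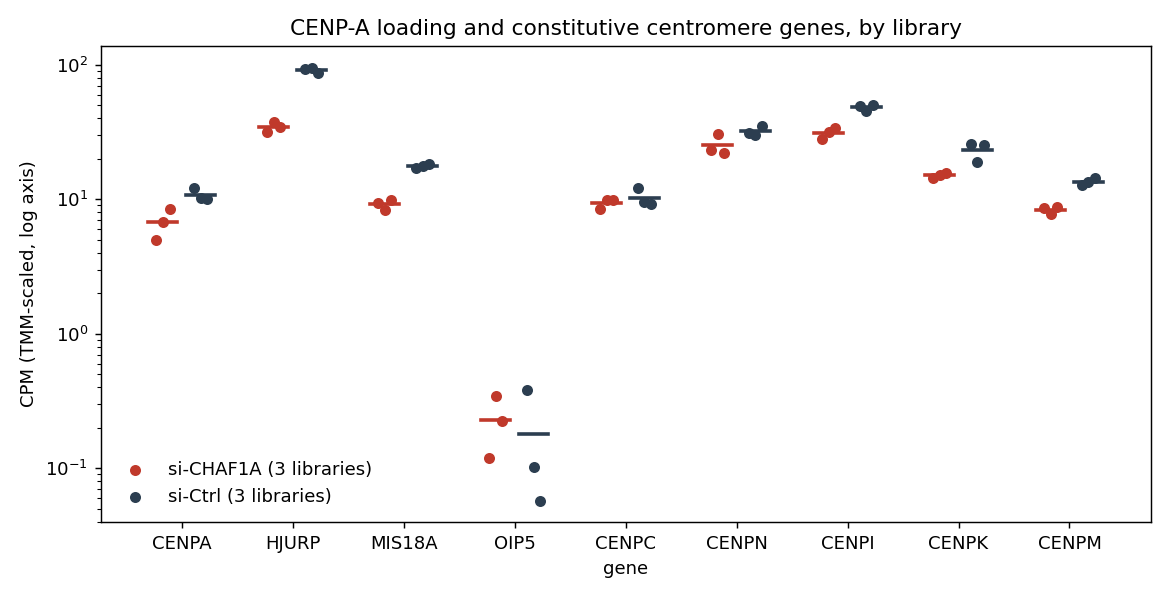
CPM (TMM-scaled, log axis) of the 9 genes in each library, 3 si-CHAF1A libraries left and 3 si-Ctrl libraries right for each gene, with a line at the group mean. HJURP stands at 31.9 to 37.5 CPM in si-CHAF1A and 86.4 to 95.4 CPM in si-Ctrl, while CENPC, CENPN and OIP5 overlap between the groups.

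HJURP (ENSG00000123485, GRCh38 chromosome 2, 233833416 to 233854566, minus strand) is the dedicated CENP-A chaperone. It stood at 31.9, 37.5 and 34.2 CPM in si-CHAF1A and at 93.5, 95.4 and 86.4 CPM in si-Ctrl. The groups are far apart, and the spread inside each is small. It fell 2.66-fold, a log2 fold change of -1.41 with an SE of 0.08 and a 95% interval of -1.58 to -1.24 (edgeR adjusted p = 2.54e-09). Of the 15911 tested genes, 80 had a lower log2 fold change.

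CENPA (ENSG00000115163, chromosome 2, 26764289 to 26801067, plus strand) encodes the histone variant itself. Its counts were low, 84, 117 and 151 in si-CHAF1A and 190, 203 and 176 in si-Ctrl, which came to 4.99, 6.72 and 8.47 CPM in si-CHAF1A and 12.2, 10.3 and 10.1 CPM in si-Ctrl. The knockdown libraries are spread widely, yet the highest of them is under the lowest control. CENPA fell 1.60-fold (log2 fold change -0.68, SE 0.17, 95% interval -1.04 to -0.33, edgeR adjusted p = 0.00437). The GENCODE 29 gene begins far upstream of the RefSeq start whose promoter is printed above, and that outermost start lies 5 bases from the start of SLC35F6 on the same strand. SLC35F6 had 104 ± 5.39 CPM in si-CHAF1A and 107 ± 7.89 CPM in si-Ctrl (SD, n = 3 each; log2 fold change -0.04, edgeR adjusted p = 0.691).

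The chaperone was also set against its cargo, library by library. The log2 ratio of HJURP to CENPA, not scaled by length, was 2.65, 2.46 and 2.00 in si-CHAF1A and 2.93, 3.20 and 3.08 in si-Ctrl, a mean difference of -0.70. The groups do not overlap, and the exact two-sided permutation test gave p = 0.1, the smallest that 3 against 3 libraries allow (adjusted p = 0.129 over 9 such ratio comparisons). The size of the difference ran from -0.84 to -0.52 when single libraries were left out. si-CHAF1A 3, where CENPA was highest among the knockdown libraries, had the lowest ratio.

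MIS18A (ENSG00000159055, chromosome 21, 32268219 to 32279069, minus strand), the core subunit that licenses centromeres for new CENP-A, stood at 9.39, 8.33 and 9.87 CPM in si-CHAF1A and at 17.01, 17.7 and 18.3 CPM in si-Ctrl. Each group is tight, and the gap between them is wide. The difference was 1.92-fold (log2 fold change -0.94, SE 0.11, 95% interval -1.17 to -0.71, edgeR adjusted p = 6.98e-06). The antisense gene MIS18A-AS1 had 1 to 9 counts in a library.

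OIP5 (ENSG00000104147, chromosome 15, 41309268 to 41332621, minus strand), the MIS18-beta subunit that pairs with MIS18A, was almost without reads. It had 2, 6 and 4 counts in si-CHAF1A and 6, 2 and 1 in si-Ctrl, and so was not tested. The sums of 12 in si-CHAF1A (exact Poisson 95% interval 6.20 to 20.96) and 9 in si-Ctrl (4.12 to 17.1) gave a ratio of 1.35 with an interval of 0.52 to 3.64, which covers counting error only. A difference was not detectable at this depth. In GENCODE 29 a share of 38.0% of OIP5's 1236 exonic bases (470) also belongs to OIP5-AS1 on the opposite strand. OIP5-AS1 held 72.7 ± 0.58 CPM in si-CHAF1A and 93.2 ± 10.4 CPM in si-Ctrl (SD, n = 3 each; log2 fold change -0.36, edgeR adjusted p = 0.0023). NUSAP1, a spindle protein gene whose start lies 73 bases from that of OIP5, was equally sparse with 3 to 9 counts in si-CHAF1A and 6 to 12 in si-Ctrl. How the counting treated reads that fall on overlapping genes is not given in the sources used here, and its part in these low counts was not tested.

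CENPC and CENPN are the direct readers of the CENP-A nucleosome, and they had the smallest differences of the tested genes. CENPC (ENSG00000145241, chromosome 4, 67468748 to 67545606, minus strand) stood at 8.44, 9.88 and 9.82 CPM in si-CHAF1A and at 12.1, 9.60 and 9.18 CPM in si-Ctrl. The groups overlap, and only si-Ctrl 1 stands above the rest. Its log2 fold change was -0.13 (SE 0.14, 95% interval -0.42 to 0.16, edgeR adjusted p = 0.494), an interval that still allows a fall the size of CENPN's.

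CENPN (ENSG00000166451, chromosome 16, 81006498 to 81033114, plus strand) stood at 23.1, 30.6 and 22.1 CPM in si-CHAF1A and at 31.0, 30.3 and 35.3 CPM in si-Ctrl. si-CHAF1A 2 reached the level of the controls, while the other knockdown libraries lay below them. It fell 1.27-fold (a log2 fold change of -0.35 with an SE of 0.12, edgeR adjusted p = 0.0265). The call was lost without si-Ctrl 3 (-0.28, adjusted p = 0.107), without si-CHAF1A 1 (-0.29, adjusted p = 0.12) and without si-CHAF1A 3 (-0.26, adjusted p = 0.151), all by edgeR. Of its 3157 exonic bases, 24.9% are shared with genes on the opposite strand, among them CMC2, which also fell (log2 fold change -0.38, edgeR adjusted p = 0.0121).

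CENP-I, CENP-K and CENP-M are subunits, with CENP-H, of 1 subcomplex of the platform, and the genes of all 3 fell by similar amounts. CENPI (ENSG00000102384, chromosome X, 101098218 to 101163681, plus strand) stood at 27.9, 31.6 and 33.8 CPM in si-CHAF1A and at 49.6, 45.3 and 50.4 CPM in si-Ctrl (log2 fold change -0.64, SE 0.09, edgeR adjusted p = 3.74e-05). CENPK (ENSG00000123219, chromosome 5, 65517766 to 65563171, minus strand) stood at 14.3, 15.2 and 15.8 CPM in si-CHAF1A and at 25.8, 18.8 and 25.5 CPM in si-Ctrl (log2 fold change -0.63, SE 0.12, edgeR adjusted p = 0.000747). Among the controls si-Ctrl 2 is the low one, without which CENPK stood at -0.77 on the log2 scale. PPWD1, whose start lies 65 bases from that of CENPK on the other strand, did not pass (log2 fold change -0.15, edgeR adjusted p = 0.269). CENPM (ENSG00000100162, chromosome 22, 41938721 to 41947164, minus strand) stood at 8.68, 7.75 and 8.70 CPM in si-CHAF1A and at 12.7, 13.4 and 14.4 CPM in si-Ctrl (log2 fold change -0.69, SE 0.12, edgeR adjusted p = 0.000243). In these 3 genes no knockdown library reached the lowest control.

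**Figure D2:**
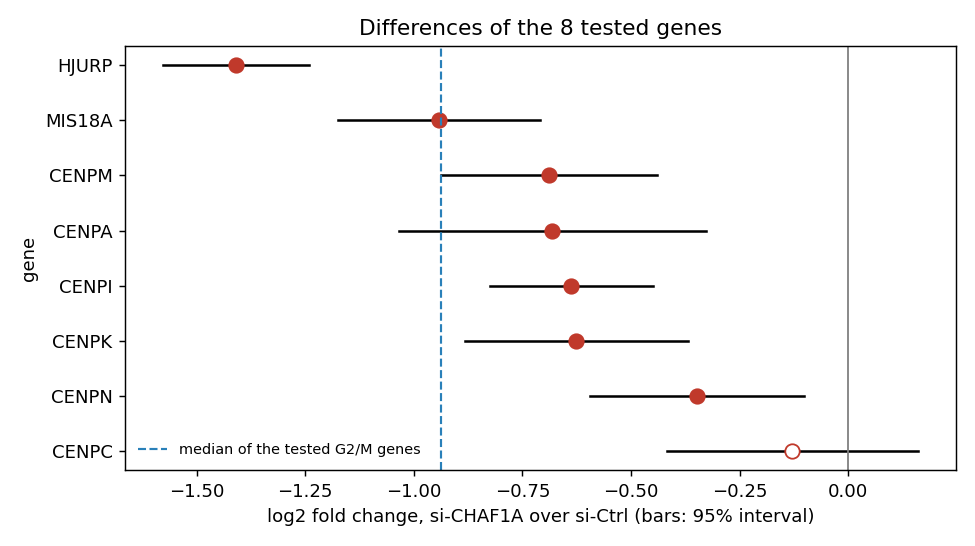
Log2 fold change of si-CHAF1A over si-Ctrl for the 8 tested genes, with 95% intervals; filled points pass an adjusted p of 0.05, and the dashed line marks the median of the tested G2/M genes. HJURP at -1.41 lies beyond that median of -0.94, MIS18A lies on it, and CENPC at -0.13 has an interval that spans 0.

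Levels were also ordered per kilobase of exon, to allow a comparison between genes. In si-CHAF1A the order was HJURP (10.8 CPM per kb), CENPI (8.18), CENPN (8.01), CENPM (6.14), CENPK (5.97), MIS18A (5.84), CENPA (4.63), CENPC (1.35) and OIP5 (0.19). In si-Ctrl it was HJURP (28.8 CPM per kb), CENPI (12.7), MIS18A (11.2), CENPN (10.2), CENPM (9.89), CENPK (9.25), CENPA (7.46), CENPC (1.48) and OIP5 (0.15). HJURP led in both groups without overlap of its library range with the next gene's. In si-CHAF1A the library ranges of CENPI and CENPN overlap, as do those of CENPM, CENPK and MIS18A, and those of MIS18A and CENPA. In si-Ctrl the ranges of each pair of neighbours from MIS18A to CENPA overlap, so their order is not settled. MIS18A ranked 3 in si-Ctrl and 6 in si-CHAF1A. The exonic length counts all exons of the basic annotation, which for CENPC (6940 bases) and other genes may exceed the transcript that the cells use.

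Several of these genes are transcribed mainly in G2 and mitosis, so each was set against the mean of 21 tested G2/M genes in the same library. The G2/M list, too, was chosen with earlier results of these data known. All 21 were lower, with a median log2 fold change of -0.94, and AURKA (-1.46), TPX2 (-1.08), MKI67 (-0.95) and CDC20 (-1.12) had the smallest p-values. Relative to that mean, HJURP stood at -0.16, -0.03 and -0.22 in si-CHAF1A and at 0.33, 0.44 and 0.20 in si-Ctrl on the log2 scale, a difference of -0.46. Only AURKA among the G2/M genes had a lower log2 fold change than HJURP. MIS18A's groups overlap (difference 0.01, exact permutation p = 1.0), and CENPA's groups overlap (difference 0.24, exact permutation p = 0.3). CENPA's difference was 0.10 without si-CHAF1A 3 and 0.39 without si-CHAF1A 1, and MIS18A's ran from -0.05 to 0.09 when single libraries were left out. CENPM (0.27), CENPI (0.31), CENPK (0.33), CENPN (0.59) and CENPC (0.82) all stood higher relative to the G2/M mean in si-CHAF1A than in si-Ctrl. For HJURP and these 5 genes the groups do not overlap, and the exact two-sided permutation test gave p = 0.1 in each, the smallest it allows (adjusted p = 0.129 over 9 comparisons).

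**Figure D3:**
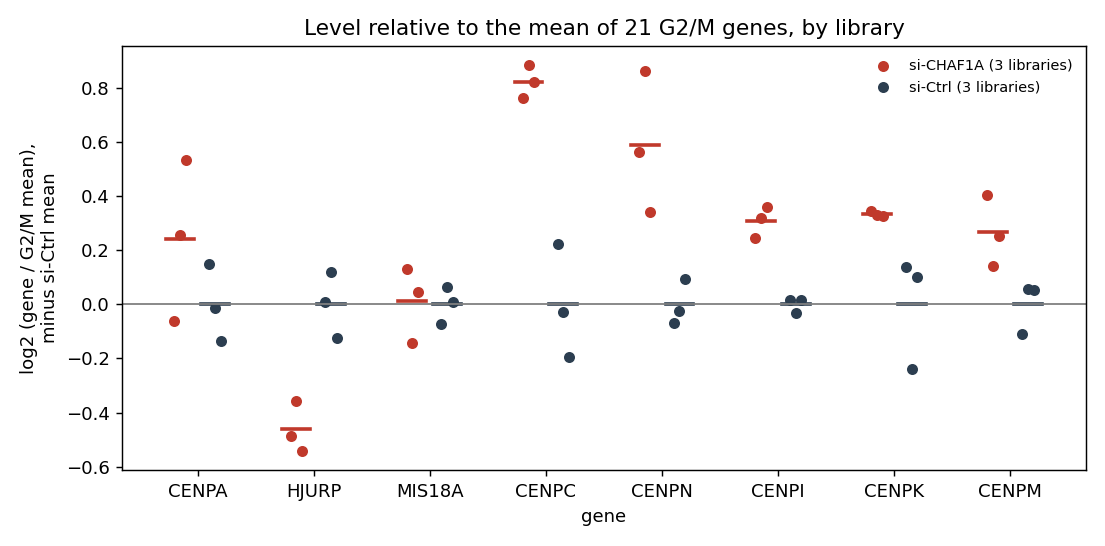
Log2 level of each gene relative to the mean of 21 G2/M genes in the same library, shifted so that the si-Ctrl mean is 0; 3 si-CHAF1A libraries left, 3 si-Ctrl libraries right, lines at the means. HJURP lies 0.46 below its controls (difference -0.46), MIS18A is level with them at 0.01, and CENPC lies 0.82 above.

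Of the 11 remaining constitutive centromere proteins, all tested, 6 were lower, 0 higher and 5 did not pass. Their median log2 fold change was -0.34. These counts and those of the lists below stand against 19.3% lower and 18.5% higher over all tested genes. CENPO fell by 0.73 and CENPH, a partner of CENP-I and CENP-K, fell by 0.75. CENPW, a histone-fold protein, fell by 0.97, while its dimer partner CENPT was at 0.14 and did not pass (edgeR adjusted p = 0.315). CENPX fell by 0.45, and CENPS, its partner, was at -0.03 (edgeR adjusted p = 0.955) with about 1 CPM in both groups. CENPL, which pairs with CENP-N, was at -0.19 (edgeR adjusted p = 0.255). CENPT, CENPS and CENPL were chosen after their values were seen.

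Among 12 further factors of CENP-A deposition and maintenance, 7 were lower and 1 higher, with a median of -0.23. PLK1, the kinase that licenses MIS18 at centromeres, fell by 1.27 to 60.4 CPM in si-CHAF1A, against 146 CPM in si-Ctrl. RACGAP1 fell by 0.71 and the remodelling factor RSF1 fell by 0.64. RBBP4, a histone chaperone shared with CAF-1, was the single higher gene (0.24, chosen after its value was seen), and 0 were higher without si-CHAF1A 2. RBBP7, on the same list, fell by 0.40 (edgeR adjusted p = 0.00018, chosen after its value was seen). CENPB, which binds a DNA motif in alpha satellite repeats, stood at 0.00 (edgeR adjusted p = 0.982; chosen after its value was seen). The kinases and cyclins that block CENP-A loading before mitotic exit were all lower: CCNA2 fell by 1.01, CCNB1 fell by 0.90, CDK1 fell by 0.68 and CDK2 fell by 0.38.

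In the outer kinetochore, the inner centromere and the G1/S genes, more tested genes were lower than higher, and some did not pass. Over all tested genes 19.3% were lower and 18.5% higher. In the outer kinetochore 5 of 9 tested genes were lower and 0 higher, with a median of -0.31. NUF2 fell by 1.39, NDC80 fell by 0.80 and ZWINT fell by 0.51. The lower count here was 3 without si-Ctrl 3 and 3 without si-CHAF1A 1. Of the 8 genes of the chromosomal passenger complex and inner centromere 7 were lower and 0 higher, with a median of -0.67. CDCA8 (borealin) fell by 0.92, the checkpoint kinase BUB1 fell by 0.85, and the shugoshins SGO1 and SGO2, which protect centromeric cohesion, fell by 1.13 and 0.79. BIRC5 (survivin) was at 0.00 (edgeR adjusted p = 0.982). Of the tested G1/S genes 13 of 18 were lower and 1 higher, with a median of -0.29, led by MCM6 (-0.56).

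**Figure D4:**
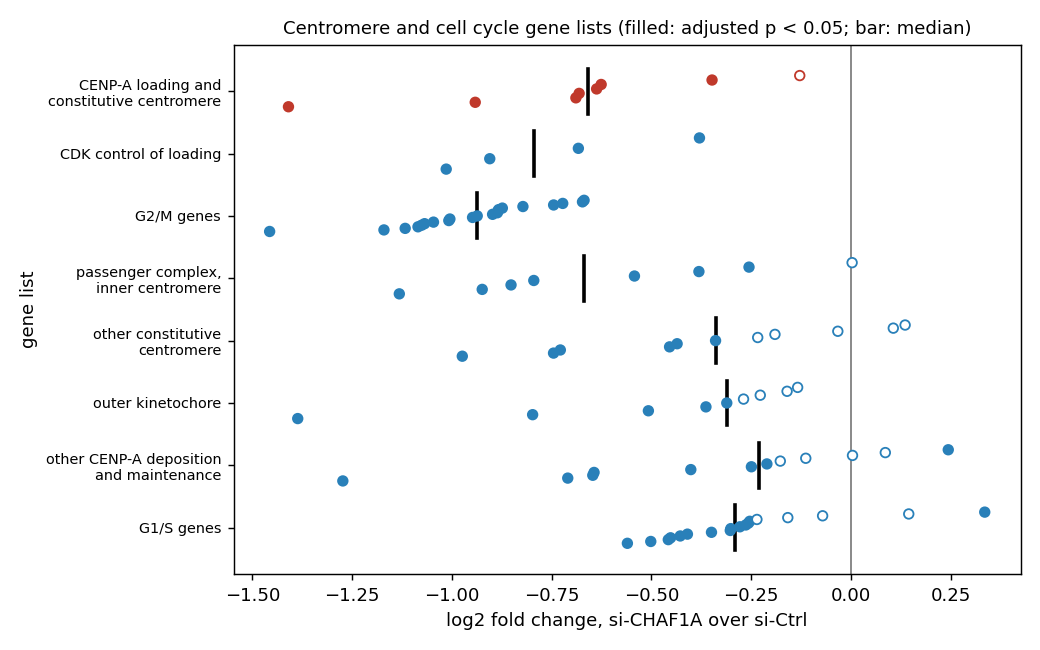
Log2 fold change of si-CHAF1A over si-Ctrl for each tested gene of the 8 lists, filled where the adjusted p is under 0.05, with a bar at the list median. The 8 tested CENP-A loading and constitutive centromere genes have a median of -0.66, between the G2/M genes at -0.94 and the G1/S genes at -0.29.

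The tested protein-coding genes with a mean log2 CPM of at least 2 were searched for profiles like those of HJURP and CENPA, by the root mean square difference over the 6 libraries of log2 CPM centred on the si-Ctrl mean. Nearest to HJURP among 10727 genes were SRA1 (0.05), HAS3 (0.07), TRIP13 (0.08), PDHX (0.09) and STMN1 (0.10), with log2 fold changes from -1.50 (PDHX) to -1.30 (STMN1). Nearest to CENPA were KIAA0586 (0.12), FRMD4B (0.13), CASP4 (0.14), ETV1 (0.14) and FAM204A (0.14), with log2 fold changes from -0.79 (FRMD4B) to -0.63 (KIAA0586). None of the 9 centromere genes is among them. TRIP13, an ATPase of the spindle checkpoint, and STMN1, which destabilises microtubules, act in mitosis, whereas HAS3 makes hyaluronan and PDHX is part of the pyruvate dehydrogenase complex. All 6 points come from the same 2 groups, so this likeness mostly measures a similar size of difference.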

How the data were processed

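The values are gene-level read counts, deposited by the authors as whole numbers without normalisation. The submitters' processing notes name fastp 0.20.1, HISAT2 2.1.0, SAMtools 1.9, featureCounts 2.0.1, StringTie 2.1.4 and hg38, with no settings. The sources used here give no strand setting and no annotation release. Columns named NC and si were matched to the titles by group and number (NC read as negative control). No column of other samples was present (0), and 0 rows lacked a gene name.

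Symbols came from a gene name table (62665 of 63186 rows), and coordinates and exons from GENCODE 29 (GRCh38). Genes passing filterByExpr (minimum count 10, minimum total 15; 15911) entered the robust quasi-likelihood test of edgeR 4.0.16 (R 4.3.3), with TMM factors and all 6 libraries. P-values were adjusted by Benjamini-Hochberg over all tested genes at 0.05. SE is the log2 fold change divided by the square root of F, and intervals are 95%. The test was checked on simulated data. Log ratios used log2 CPM with a prior count of 2 and exact permutation tests (SciPy 1.17.1). DESeq2 1.42.0, other scalings, no filter, the replicate block and left-out libraries were alternatives.

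Members and gene lists were chosen with earlier results of these data known. Named were all 9 members, CHAF1A, up to 4 genes of a list with the smallest adjusted p, any not past the test where 3 or fewer, neighbours overlapping a member or starting within 1 kb of it, and the 5 nearest profiles of HJURP and CENPA. A gene that this rule names is not reported here. Counting intervals cover counting error only.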

Additional observations from a re-analysis of the deposited data

How the results depend on the processing

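All 8 tested centromere genes and CHAF1A kept their sign under every alternative run. These were RLE, upper-quartile and total-count scaling, no filter, DESeq2, the replicate block and 6 left-out libraries. CENPC passed the test in none of them. Its log2 fold change ran from -0.21 to -0.0048 when single libraries were left out, so its direction is not settled. The 7 lower calls became 6 where CENPN was lost, with log2 fold changes of -0.30 by library totals (edgeR adjusted p = 0.0646) and -0.30 by upper-quartile factors (edgeR adjusted p = 0.0503). Leaving out single libraries gave -0.51 to -0.26 for CENPN, 3 to 7 lower outer kinetochore genes and 0 to 1 higher deposition factors. It also gave 4 to 7 lower genes among the other constitutive centromere proteins. For the passenger complex and inner centromere list it gave 5 to 7. By library totals these 2 lists had 4 and 5 lower genes. Higher G1/S genes came to 2 by library totals and 2 by upper-quartile factors. These scalings shifted the median of all genes by 0.05 and turned the balance of all calls, with 3447 genes higher and 2455 lower by library totals and 3439 higher and 2562 lower by upper-quartile factors. The cause of these changes was not tested.

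Same-numbered libraries did not deviate together (correlations -0.26, -0.17 and 0.05 over 11372 genes). These correlations cannot show whether same-numbered samples were prepared together, because libraries were few and a control stood apart from the others. With the replicate block 7 members were lower, with 2675 genes higher and 2723 lower in all, against 2944 and 3064 without it. Low counts limit OIP5, which could not be tested. CENPA had the largest SE of the tested centromere genes (0.17), and its si-CHAF1A libraries were spread from 4.99 to 8.47 CPM. The part of its low counts in that SE was not tested.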

Other observations

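A few genes of mitosis on the lists used here were sparse in both groups, beside OIP5. SPC25, a subunit of the NDC80 complex, had 27 counts summed over the si-CHAF1A libraries and 32 over the si-Ctrl libraries and was not tested, while its partner NUF2 was among the genes with the largest falls. NUSAP1 summed to 20 counts in si-CHAF1A and 25 in si-Ctrl. PRC1, which bundles microtubules of the central spindle, summed to 62 counts in si-CHAF1A and 131 in si-Ctrl and passed the test (log2 fold change -1.05, SE 0.28, edgeR adjusted p = 0.00827). For these genes too, the sources used here do not say how reads on overlapping genes were counted. The part of that counting in their low counts was not tested, so low counts here need not mean low expression. Pseudogene copies drew almost no reads: CENPCP1, CENPNP1 and CENPNP2 had 1 count each over all 6 libraries, and CENPIP1 had 0.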
